A study of Sus scrofa with 12 samples.

Results

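The comparison described here is the late cold-storage step of pig muscle after slaughter, in which the 3 arrays taken 24 h after death were set against the 3 arrays taken 6 h after death. These 6 arrays are part of a series of 12, and each pig was compared with itself through the pig number in the sample titles. All probe sets except the 124 controls were included, 23999 of 24123. The tissue was the semimembranosus of the ham, from 3 female commercial hybrid pigs of about 160 kg, whose ages are not given in the labels. All 3 came from 1 farm, were stunned with CO2 at 87% and slaughtered at 1 abattoir, and the labels name no treatment or genotype beyond this. A portion of 3 to 5 g was cut from the left leg at each of 4 times (20 min, then 2, 6 and 24 h) during cooling of the carcass towards 4 °C, and total RNA of each portion was read on 1 porcine Affymetrix array with a single label. Each time is thus a different piece of the same muscle, so that time and piece cannot be told apart within a pig.

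After death the blood supply and oxygen end, glycogen is broken down by glycolysis, ATP runs out and the muscle enters rigor, after which calpains and other proteases slowly weaken the sarcomere. Transcripts that remain are balanced between any synthesis that continues and decay by nucleases, and short-lived mRNAs such as those of immediate early genes turn over fastest in living cells. Muscle also holds resident macrophages between its fibres, which in life clear debris and haemoglobin and make the C1q component of complement.

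Markers of skeletal muscle fibres were at like levels at both times. The 16 measured ones had a median log2 change of 0.01, and their intensities, summed after undoing the log2, came to 287500 to 290000 on the 6 h arrays and 286900 to 293000 on the 24 h arrays. Among them TTN, NEB, MYL1 and TNNC2 were at percentile 99.8 or above by level. Quantile normalisation, part of the deposited processing, sets the highest values of each array nearly equal. Like levels at the top of the scale thus cannot show that fibre RNA was unchanged. Medians of single arrays were 5.89 to 5.93 (log2), and pairs of arrays correlated across probe sets at 0.990 to 0.997. Detection calls are not used here, and precision is limited by having 3 arrays at each time. Signs of RNA quality were the differences in log2 level between control probe sets, 3′ minus 5′. From 6 h to 24 h they rose in 3 of 3 pigs for EF1A and GAPDH, and in pig 1 only for actin. The EF1A difference changed by 0.32, 0.03 and 0.26 (log2) in pigs 1, 2 and 3, the actin difference by 0.43, -0.03 and -0.04, and the GAPDH difference by 0.07, 0.10 and 0.08.

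The transcripts that differed most between 6 h and 24 h were lower at 24 h, and several of them are known from tissue macrophages. C1QC and C1QA encode chains of C1q, and VSIG4 is a complement receptor of tissue-resident macrophages. CD163 is the macrophage receptor for haemoglobin bound to haptoglobin, and CCL24 is a chemokine. Each of these genes was between 2.10-fold and 2.81-fold lower at 24 h in the mean of the pigs. All were lower in 3 of 3 pigs, as 15.8% of all probe sets were, but they were chosen for that. No probe set passed in the limma fit of all 12 arrays with pig as a block (0 of 23999, 0%, smallest adjusted p = 0.533). An unadjusted p under 0.05 was reached by 1938 probe sets (8.08%), against 1200 that chance gives on average, 1027 of them higher (4.28%) and 911 lower (3.8%). The higher ones were thus 53% of these. That share became 40.3% with cyclic loess and 78.8% after centring on bright probe sets (the 10% with the highest mean level over the 12 arrays). The changes had a median of 0.01, and 5th and 95th percentiles of -0.22 and 0.22. Of all 95% intervals of a change, 99.7% stayed inside 2-fold and 95.3% inside 1.5-fold, and their median half-width was 0.22. A mean change of more than 2-fold was seen for 0 probe sets towards higher levels and for 8 towards lower ones (0.0333%). At 1.5-fold the counts were 5 higher (0.0208%) and 35 lower (0.146%).

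**Figure D1:**
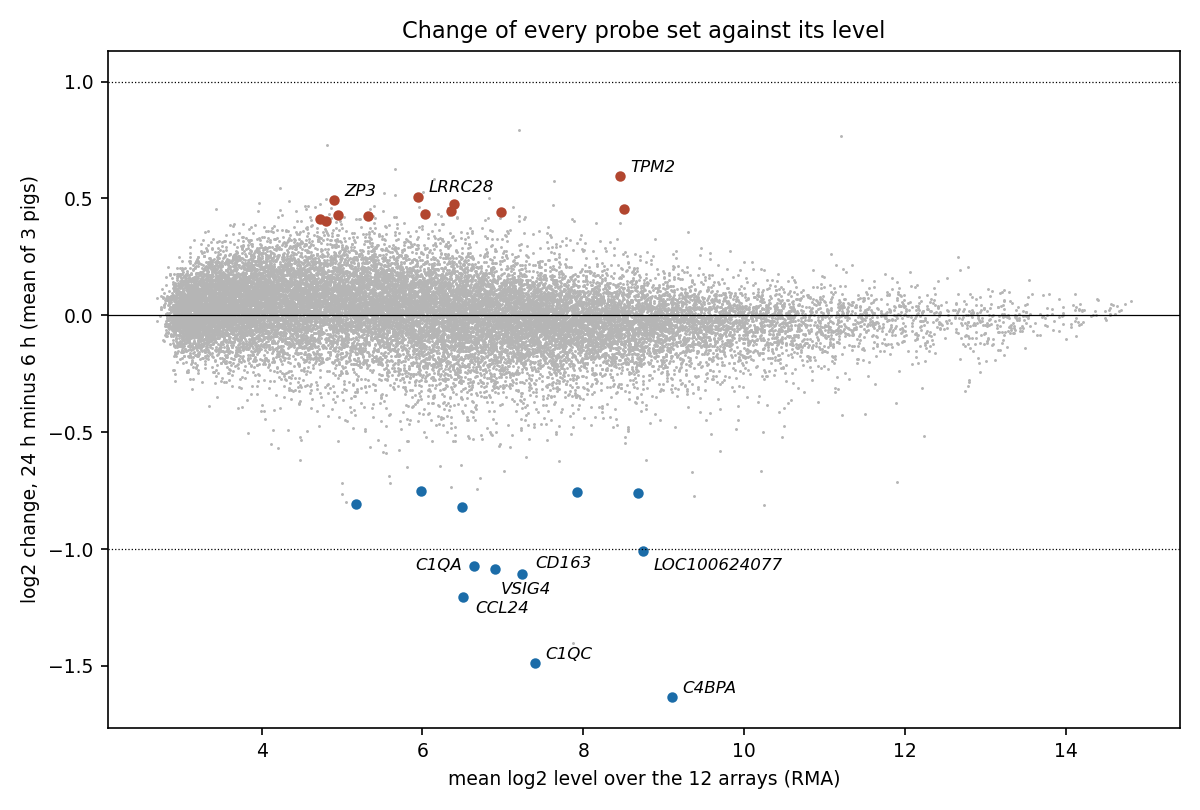
Log2 change of each of the 23999 probe sets (24 h minus 6 h, mean of 3 pigs, vertical axis) against its mean log2 level over the 12 arrays (horizontal axis). Blue and red points are the 12 lowest and 12 highest named genes among those with limma unadjusted p under 0.05 and 1 sign in all pigs. Dotted lines mark 2-fold. The changes span -1.63 to 0.79, and the 8 probe sets beyond 2-fold all lie below the lower line.

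The macrophage genes were followed pig by pig. C1QC had log2 levels of 8.16, 7.63 and 7.51 at 6 h in pigs 1, 2 and 3, and of 6.77, 6.25 and 5.81 at 24 h. Every 24 h array lay below every 6 h array, and the change was -1.49 ± 0.19 (SD over 3 pigs), 2.81-fold lower. Its unadjusted limma p was 5.63e-04 and its adjusted p = 0.533. C1QA, a second chain of the same protein, was at 7.21, 7.11 and 6.56 at 6 h and at 6.12, 5.95 and 5.60 at 24 h. Its groups did not overlap either, and its change was -1.07 ± 0.10 (limma adjusted p = 0.533). VSIG4 was at 7.51, 7.12 and 6.90 at 6 h and at 6.48, 6.05 and 5.74 at 24 h, a change of -1.09 ± 0.07 that was nearly the same in each pig (limma adjusted p = 0.572). A pair of dimmer probe sets of VSIG4 had changes of 0.01 and -0.04.

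CD163 was at 7.69, 7.61 and 7.19 at 6 h and at 6.98, 6.60 and 5.59 at 24 h, so that the groups did not overlap and pig 3 moved most. The change was -1.11 ± 0.45 for this probe set (limma adjusted p = 0.533), while a second and dimmer set of CD163 had a change of 0.35 with all 24 h arrays above all 6 h arrays. CCL24, which attracts eosinophils, was at 7.09, 6.55 and 6.74 at 6 h and at 5.91, 5.66 and 5.20 at 24 h, again without overlap. Its change was -1.20 ± 0.32 (limma adjusted p = 0.569). MRC1, the mannose receptor of macrophages, was at 6.33, 6.39 and 5.92 at 6 h and at 5.83, 5.67 and 4.89 at 24 h. Its groups lay apart too, with a smaller change of -0.75 ± 0.26 (limma adjusted p = 0.589).

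**Figure D2:**
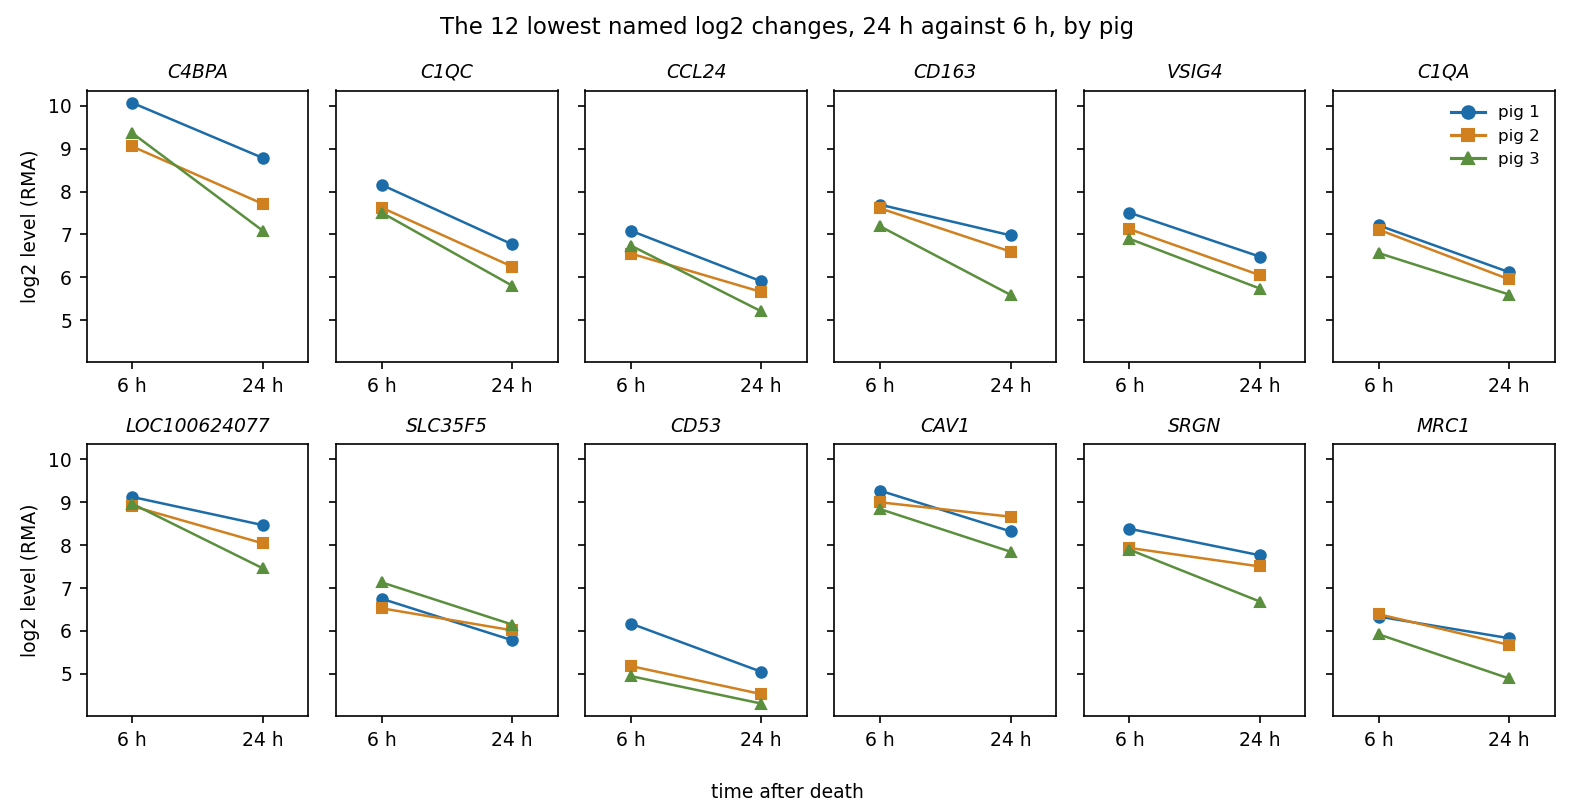
Log2 levels (RMA, vertical axis) at 6 h and 24 h after death in each pig for the 12 named genes with the lowest changes, ordered from C4BPA at -1.63 to MRC1 at -0.75. The genes were chosen for lower levels in all 3 pigs, so the downward lines follow from the choice; the points of the 2 times overlap only for CD53, and lie apart in the other 11 panels as in 3.99% of all probe sets, from which nothing further is read.

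As a list, macrophage and leukocyte markers had members on both sides of 0. Of 35 genes in the list 25 were measured, 15 with a lower and 10 with a higher mean at 24 h, where 54.4% and 45.6% of the 6765 named genes were lower and higher. Here and for every list below, a gene is represented by its brightest probe set. An unadjusted p under 0.05 was reached by 8 of the 25 as lower and by 0 as higher, where 3.86% and 2.62% of the 6765 named genes did so. For 6 of the 25 all 24 h arrays lay below all 6 h arrays, against 4.48% of the named genes, and 11 of 25 were lower in 3 of 3 pigs, against 20.4%. The list was drawn up with lower values of C1QC, C1QA and CD163 in these samples already known, so these counts are no independent evidence of a direction. The median change of the list was only -0.04, beside -0.01 over all named genes, and its sign turned with the bright centring and without pig 1 (0.0032 and 0.0037). The summed intensity of the list was 2277 to 2980 on the 6 h arrays and 1554 to 2224 on the 24 h arrays. In whole tissue, fewer cells of a type and less RNA per cell cannot be told apart.

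Besides the C1q chains and scavenger receptors, a calcium-binding macrophage gene and genes of antigen presentation were among those with lower means. AIF1, the first of these, was at 6.00, 5.78 and 6.06 at 6 h and at 5.65, 5.43 and 5.04 at 24 h. It had a change of -0.58 ± 0.39 with groups that did not overlap. SLA-DRA, a class II histocompatibility chain, was at -0.50 ± 0.44 and its partner CD74, the invariant chain, at -0.45 ± 0.25, both with overlapping groups. The signalling adaptor TYROBP was at -0.24 ± 0.23 and the lysosomal LAPTM5 at -0.34 ± 0.30. Several other myeloid markers had means at or above 0. The monocyte receptor CD14 was at 0.14 ± 0.02 by its brightest set, but a slightly dimmer set was at -0.38 ± 0.05 with groups apart below, so that its sets disagree. The scavenger receptor MARCO was at 0.12 ± 0.10, the granulocyte proteins S100A8 and S100A9 at 0.10 ± 0.22 and 0.01 ± 0.07, and the pan-leukocyte PTPRC at 0.14 ± 0.03. T-cell and B-cell genes were near 0, with CD3E at 0.03 ± 0.14, CD3D at -0.02 ± 0.13, CD2 at 0.11 ± 0.07, CD8A at -0.01 ± 0.19 and CD79B at 0.05 ± 0.13. In pig 2 the EF1A, actin and GAPDH signs of RNA quality changed by 0.03, -0.03 and 0.10, and the C1QC, C1QA and VSIG4 levels by -1.38, -1.16 and -1.07. The part of RNA quality in the lower levels was not tested in any pig.

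The earlier times put the late step in its course. In order of time, C1QC had means of 7.91 ± 0.79, 7.64 ± 0.43, 7.76 ± 0.35 and 6.28 ± 0.48 (SD, n = 3). VSIG4 was at 7.28 ± 0.65, 7.05 ± 0.57, 7.18 ± 0.31 and 6.09 ± 0.37 at these times, and CCL24 at 7.03 ± 0.72, 6.59 ± 0.25, 6.79 ± 0.27 and 5.59 ± 0.36. The means of the first 3 times thus lay close together and the 24 h mean stood below them. For 7 of the 8 probe sets more than 2-fold lower, all 3 of the 24 h arrays were below all 9 earlier arrays; the exception was CD163, whose 24 h array of pig 1 at 6.98 was above its 2 h array of pig 3 at 6.79. Over all probe sets this was so for 90 of 23999 (0.375%), though the 8 were chosen with the same 24 h arrays. The 20 min array of pig 3 was the highest of the series for several of these genes, with C1QC at 8.77 there against 7.74 and 7.21 in pigs 1 and 2.

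**Figure D3:**
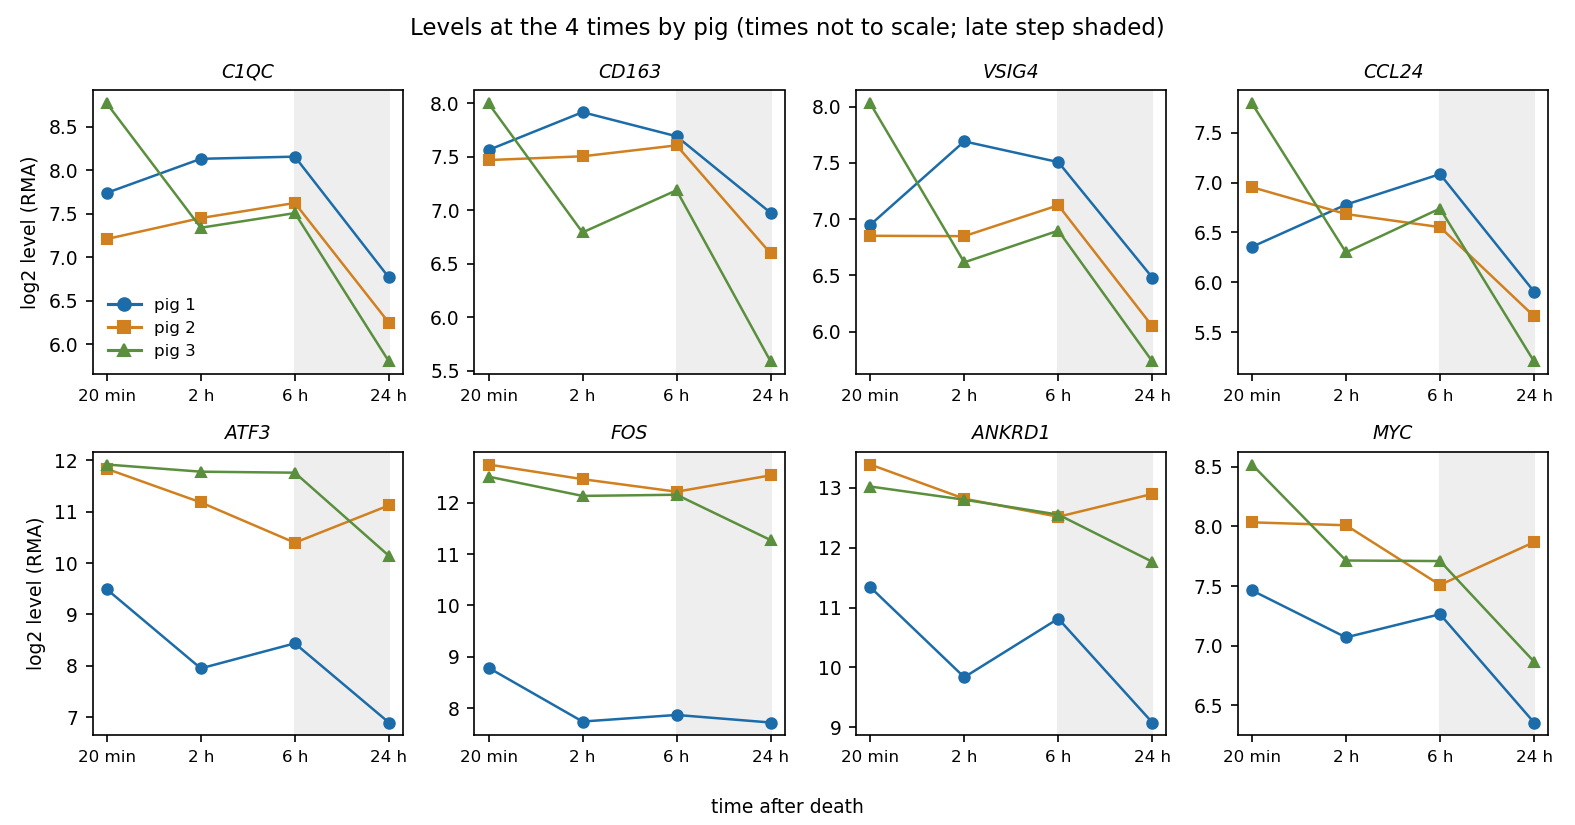
Log2 levels (RMA, vertical axes differ between panels) at the 4 times after death in each pig, with times evenly spaced and the step from 6 h to 24 h shaded. In the upper row C1QC, CD163, VSIG4 and CCL24 go down in all 3 pigs over the shaded step; in the lower row ATF3, FOS, ANKRD1 and MYC go down in pigs 1 and 3 and up in pig 2.

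That spread at the early times entered the test, since the fit shares 1 estimate of residual variance over the 4 times. When only the 6 arrays of 6 h and 24 h were fitted, 4 of 23999 probe sets passed (0.0167%), all of them lower at 24 h. They were C1QC (SE 0.0940, limma adjusted p = 0.009995), VSIG4 and C1QA (adjusted p = 0.0130 for both in that limma fit) and 1 probe set with no gene symbol (adjusted p = 0.0387). CCL24 did not pass there (limma adjusted p = 0.0622), nor did CD163 (0.259) or C4BPA (0.102). The SE of the C1QC change was 0.317 in the fit of 12 arrays. With 2 residual and 5.62 prior degrees of freedom, the smaller fit rests mostly on the spread of other probe sets. Without pig 3, C1QC also passed in the larger fit, as the 1 probe set that did (-1.38, limma adjusted p = 0.00706). Without the pig block its adjusted p in limma was 0.9997.

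Other transcripts outside the macrophage list were lower by similar amounts. C4BPA, which encodes a chain of the C4b-binding protein that restrains complement, had the lowest change of all probe sets. It was at 10.07, 9.05 and 9.36 at 6 h and at 8.78, 7.71 and 7.09 at 24 h, without overlap, and its change was -1.63 ± 0.56 (limma adjusted p = 0.572). The probe set with no symbol was at 8.90, 7.94 and 7.85 at 6 h and at 7.34, 6.94 and 6.20 at 24 h, again without overlap, with a change of -1.40 ± 0.35. LOC100624077, a locus without a gene name, had a change of -1.01 ± 0.44. SRGN, the core protein of proteoglycans in secretory granules of blood cells, was at -0.75 ± 0.41, and CD53, a leukocyte tetraspanin, at -0.81 ± 0.28 with overlapping groups. The brightest set of CD53 had -0.69 and the dimmest 0.06. Without the 24 h array of pig 3 several of these were smaller, with C4BPA at -1.09, LOC100624077 at -0.63, MRC1 at -0.48 and SRGN at -0.38.

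For 3 of the 12 genes with the lowest named changes, the probe set concerned was not the brightest of its gene. The solute carrier SLC35F5 had a change of -0.82 ± 0.27 at its dimmest set, -0.33 at the next and -0.11 at its brightest, each lower in 3 of 3 pigs. CAV1, which encodes the coat protein of caveolae, had -0.76 ± 0.37 at its dimmest set, -0.26 at the next and -0.04 at its brightest, and CD53 is given above. Which transcript forms such sets read was not examined.

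The genes that were higher at 24 h were higher by less. The 12 highest named changes lay between 0.40 and 0.60, and for 7 of the 12 all 24 h arrays were above all 6 h arrays, where 6.15% of all probe sets did so; these genes were chosen for their change, so the share supports nothing further. TPM2, a tropomyosin of the thin filament, had the highest, 0.60 ± 0.02 at a dim set, while its brightest set had 0.04. ZP3, known as an egg-coat glycoprotein, was at 4.68, 4.87 and 4.41 at 6 h and at 5.28, 5.07 and 5.11 at 24 h. Its groups did not overlap and its change was 0.49 ± 0.26 (limma adjusted p = 0.533). IL1B, the inflammatory cytokine interleukin 1 beta, was at 6.33, 6.07 and 5.78 at 6 h and at 6.56, 6.55 and 6.41 at 24 h, a change of 0.44 ± 0.20 without overlap, and a dimmer set of it had 0.06. The others were LRRC28 (0.51 ± 0.39), RPL6 (0.47 ± 0.18), C9H1orf21 (0.45 ± 0.05), TM4SF5 (0.44 ± 0.29), the chaperone gene CANX (0.43 ± 0.28), the actin methyltransferase gene SETD3 (0.43 ± 0.11), the sodium-proton exchanger gene SLC9A3 (0.43 ± 0.13), the chromatin assembly gene CHAF1A (0.41 ± 0.13) and the tyrosinase gene TYR (0.40 ± 0.21). For 6 of the 12 the brightest set of the gene did not share the change. It was at -0.07 for RPL6, -0.04 for C9H1orf21, -0.18 for CANX, 0.01 for SETD3 and -0.08 for CHAF1A, beside the 0.04 of TPM2. Mean levels of the named sets were 4.73 for CHAF1A, 4.80 for TYR, 4.90 for ZP3, 4.95 for SETD3 and 5.32 for SLC9A3. These lay below the median level of 5.92 over all probe sets. Dim probe sets had median changes above 0 in general, as given below, and the part of level in these genes was not tested.

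Immediate early regulators, the genes that a stimulus switches on without new protein synthesis, differed in direction between pigs. Of 29 in the list 19 were measured, 16 with a lower mean at 24 h, against 54.4% of the named genes, and 1 was counted as lower in 3 of 3 pigs, against 20.4%. That 1 was NR4A2, which was at 5.32 in pig 2 at both times, a change of 0 that the count takes as lower. The groups lay apart below for 0 of the 19, where 4.48% of the named genes would give fewer than 1. In pig 1, 14 of 19 were lower, in pig 3, 17 were, and in pig 2 only 2 were, with the unchanged NR4A2 counted among them. The pattern of lower in pigs 1 and 3 and higher in pig 2 was met by 12 of the 19, against 12.8% of the named genes; it was picked out after the values were seen. The list median was -0.22, 0.23 and -0.39 in pigs 1, 2 and 3, and -0.12 for the mean of the pigs; without pig 3 or without its 24 h array the sign of that median turned (0.0161 and 0.0338). In the same pigs the EF1A RNA quality difference changed by 0.32, 0.03 and 0.26. The actin difference changed by 0.43, -0.03 and -0.04, and the GAPDH difference by 0.07, 0.10 and 0.08. The part of RNA quality in the split between pigs was not tested.

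ATF3, a stress-induced transcription factor, was at 8.44, 10.40 and 11.76 at 6 h and at 6.90, 11.12 and 10.14 at 24 h. It was lower in pigs 1 and 3 and higher in pig 2, and its mean change of -0.81 ± 1.33 was smaller than the SD between pigs. FOS, a subunit of the AP-1 factor, was at 7.87, 12.21 and 12.16 at 6 h and at 7.72, 12.53 and 11.27 at 24 h. The gap between pig 1 and the other pigs was far larger than any change over the step, whose mean was -0.24 ± 0.61. MYC had a change of -0.46 ± 0.71, the nuclear receptor NR4A3 of -0.67 ± 1.05 and JUN, the partner of FOS, of -0.12 ± 0.40. ANKRD1, a stretch-responsive protein of the Z-disc, was at 10.81, 12.52 and 12.55 at 6 h and at 9.08, 12.90 and 11.76 at 24 h. It showed the same split between pigs as ATF3, with -0.71 ± 1.06.

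All measured genes of the heat shock, endoplasmic reticulum stress, cold, hypoxia, antioxidant and cytokine lists had mean changes within 1.5-fold. Of 27 heat shock proteins and cochaperones 21 had a lower mean at 24 h and 11 were lower in 3 of 3 pigs, where 54.4% and 20.4% of the named genes did so, with a median of -0.08. The cochaperones STIP1 and DNAJA1 were at -0.23 ± 0.15 and -0.23 ± 0.06, HSPA2 at -0.23 ± 0.15, and the abundant small heat shock proteins HSPB1, CRYAB and HSPB6 at -0.14 ± 0.07, -0.04 ± 0.09 and 0.01 ± 0.26. Of 16 genes of the endoplasmic reticulum and integrated stress response 14 had a lower mean, against the same 54.4%, with a median of -0.11. By pig that list median was -0.19, 0.02 and -0.10 in pigs 1, 2 and 3, so pig 2 did not share it. PPP1R15A, which restores translation after stress, was at -0.37 ± 0.47 and the stress-induced factor DDIT3 at -0.20 ± 0.19, while its upstream regulator ATF4 was at -0.07 ± 0.09. The 10 cold-response genes were split evenly, 5 higher and 5 lower. The cold-inducible RNA-binding proteins CIRBP and RBM3 were at 0.05 ± 0.34 and -0.11 ± 0.12, and PPARGC1A, a regulator of mitochondrial content, at -0.31 ± 0.62. Of 17 hypoxia-response genes 9 were higher and 8 lower, with the collagen hydroxylase P4HA2 at -0.18 ± 0.10 and TXNIP, a regulator of glucose uptake, at 0.06 ± 0.12. Of 26 metallothionein and antioxidant genes 10 were higher and 16 lower, among them GCLM, a subunit of the enzyme of glutathione synthesis, at -0.36 ± 0.26 and the peroxidases PRDX1 and GPX1 at -0.21 ± 0.13 and -0.19 ± 0.07. Mitochondrial superoxide dismutase, SOD2, was at 0.04 ± 0.10. The 25 cytokines and inflammatory mediators were 13 higher and 12 lower. Beside IL1B, the monocyte chemokine CCL2 was lower in each pig, at -0.45 ± 0.10 with overlapping groups (limma adjusted p = 0.569), and IL18 was at -0.45 ± 0.38.

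Genes of energy metabolism moved little. The 46 measured genes of fatty acid oxidation and the citrate cycle had mean changes within 1.5-fold, 25 higher and 21 lower, with a median of 0.01. The 55 nuclear-encoded genes of oxidative phosphorylation were within 1.5-fold too, 27 higher and 28 lower. CPT2, which handles fatty acids at the inner mitochondrial membrane, was at 0.19 ± 0.07, DLD, a shared subunit of dehydrogenase complexes, at 0.16 ± 0.09, and the ATP synthase subunit ATP5A1 at 0.05 ± 0.05. The complex I subunits NDUFA13 and NDUFC1 were at -0.24 ± 0.13 and 0.13 ± 0.08, which shows the spread within 1 complex. Of 23 genes of glycolysis and glycogen metabolism 8 were higher and 15 lower, with a median of -0.04 that became 0.0049 with the bright centring. GAPDH was at 14.58, 14.53 and 14.53 at 6 h and at 14.60, 14.54 and 14.51 at 24 h, a change of 0.00 ± 0.02. It stood at the top of the scale, where quantile normalisation holds values nearly equal. Glycogen phosphorylase PYGM was at -0.03 ± 0.01, lactate dehydrogenase LDHA at -0.04 ± 0.08, PKM at -0.03 ± 0.02, the insulin-responsive glucose transporter SLC2A4 at -0.19 ± 0.12, TPI1 at -0.20 ± 0.13 and the pyruvate dehydrogenase kinase PDK4 at -0.01 ± 0.10. The 10 genes of purine nucleotide breakdown had a median of -0.06, with AMPD1, which deaminates AMP, at -0.07 ± 0.29 and creatine kinase, CKM, at 0.02 ± 0.01. The 18 genes of lipogenesis and triglyceride storage had a median of -0.04, with 5 higher and 13 lower; the triglyceride lipase PNPLA2 was at 0.14 ± 0.01 and the lipid droplet protein PLIN2 at -0.13 ± 0.20.

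Contractile genes moved little as well, several of them at the top of the scale, where quantile normalisation holds values nearly equal. Among 9 slow-fibre genes MYL2 was at -0.01 ± 0.04 and MYH7 at 0.02 ± 0.04, and among 9 fast-fibre genes MYH2 was at 0.02 ± 0.12 and MYL1 at 0.06 ± 0.02. The troponin genes TNNI1 (slow) and TNNC2 (fast) were at -0.06 ± 0.07 and -0.02 ± 0.02, and TPM1, the alpha-tropomyosin, at -0.05 ± 0.04. Of 21 sarcomere scaffold and Z-disc genes 7 were higher and 14 lower, with a median of -0.08. Dystrophin, DMD, which ties the cytoskeleton to the membrane, was at -0.29 ± 0.18 and titin, TTN, at 0.09 ± 0.05 with all 24 h arrays above all 6 h arrays, as for 4.04% of the named genes. XIRP1, an actin-binding protein of damaged and stretched muscle, was at 12.37, 12.82 and 13.09 at 6 h and at 11.78, 13.20 and 12.34 at 24 h. It was lower in pigs 1 and 3 and higher in pig 2, as ANKRD1 was. The 15 calcium handling genes had a median of -0.06, with 5 higher and 10 lower, among them the calmodulin gene CALM3 at -0.20 ± 0.22, FKBP1A, which stabilises the calcium release channel, at -0.19 ± 0.14, the receptor ITPR1 at 0.19 ± 0.09 and sarcolipin, SLN, at -0.01 ± 0.07. Among 18 myogenic regulators (5 higher, 13 lower) the growth inhibitor MSTN was at -0.40 ± 0.75, where pig 3 went from 6.96 to 5.71, pig 1 from 5.56 to 5.41 and pig 2 from 5.49 to 5.69. The myogenic factor MYF6 was at -0.25 ± 0.32 and PAX3, a factor of muscle precursors, at 0.19 ± 0.13 (at a low mean level of 4.55).

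In the proteolytic systems that act on meat during ageing no transcript passed the limma test. Of 18 calpains, cathepsins and their inhibitors 12 had a lower mean and 6 a higher one, beside 54.4% of the named genes with a lower mean, and their median was -0.07. The calpains CAPN1, CAPN2 and CAPN3 were at -0.07 ± 0.08, -0.11 ± 0.08 and -0.15 ± 0.09 and their inhibitor calpastatin, CAST, at -0.03 ± 0.05, with its dimmer sets between -0.30 and 0.12. The lysosomal proteases LGMN and CTSS, the second of them abundant in macrophages, were lower in 3 of 3 pigs at -0.32 ± 0.12 and -0.47 ± 0.14 (limma adjusted p = 0.572 and 0.617), and a dimmer set of CTSS was at -0.73 ± 0.30 with groups apart. Of 36 proteasome subunits 28 had a lower mean against 54.4% of the named genes, and 18 were lower in 3 of 3 pigs against 20.4% of the named genes. For 6 the groups lay apart below against 4.48%, and the list median of -0.06 remained below 0 under each alternative. By pig that median was -0.07, -0.01 and -0.10 in pigs 1, 2 and 3. These shares are not matched for level, and the brightest 10% of all probe sets had a median change of -0.03. The part of level in the proteasome counts was not tested. The catalytic subunit PSMB5 was at -0.18 ± 0.06 and PSMB4 at -0.15 ± 0.08, whereas PSMD11 of the regulatory cap was at 0.01 ± 0.07. The 23 genes of muscle atrophy and autophagy (9 higher, 14 lower, again beside 54.4% lower) had a median of -0.025, which the bright centring turned to 0.0156, with the autophagy genes ATG7, BECN1 and MAP1LC3A at -0.29 ± 0.10, -0.12 ± 0.07 and -0.14 ± 0.14 and the ubiquitin gene UBB at -0.03 ± 0.01. In the apoptosis and p53 list of 22 genes, 7 higher and 15 lower, the initiator caspase CASP8 was at -0.34 ± 0.30 (at a low mean level of 4.18) and the receptor TNFRSF12A at -0.37 ± 0.47, while cytochrome c, CYCS, was at 0.16 ± 0.19.

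Genes of RNA turnover and translation moved little. Of 29 genes of mRNA deadenylation and decay 22 had a lower mean (54.4% of the named genes), with a median of -0.06, among them LSM2 of the decapping-linked ring at -0.19 ± 0.09, EXOSC5 of the exosome at -0.12 ± 0.10 and the deadenylase CNOT7 at -0.11 ± 0.12. By pig that list median was -0.07, 0.02 and -0.09 in pigs 1, 2 and 3, so pig 2 did not share it. The 9 ribonuclease genes were 2 higher and 7 lower, with the lysosomal RNASET2 at -0.35 ± 0.32 and the ribonuclease inhibitor RNH1 at -0.14 ± 0.09. Of 59 cytosolic ribosomal protein genes 46 had a lower mean and 29 were lower in 3 of 3 pigs, beside 54.4% and 20.4% of the named genes, with a median of -0.04 that came to -0.0013 with the bright centring. RPL3 was at -0.18 ± 0.10, RPS24 at -0.15 ± 0.07 and RPS29 at -0.01 ± 0.05. Among 16 candidate reference genes for quantitative PCR the actin ACTG1 was at 0.02 ± 0.03 and RPL4 at -0.10 ± 0.02. TFRC, the transferrin receptor, was at 7.42, 6.94 and 7.76 at 6 h and at 6.68, 6.50 and 7.27 at 24 h. Its groups overlapped and it stood at -0.56 ± 0.16, the largest change of this list.

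**Figure D4:**
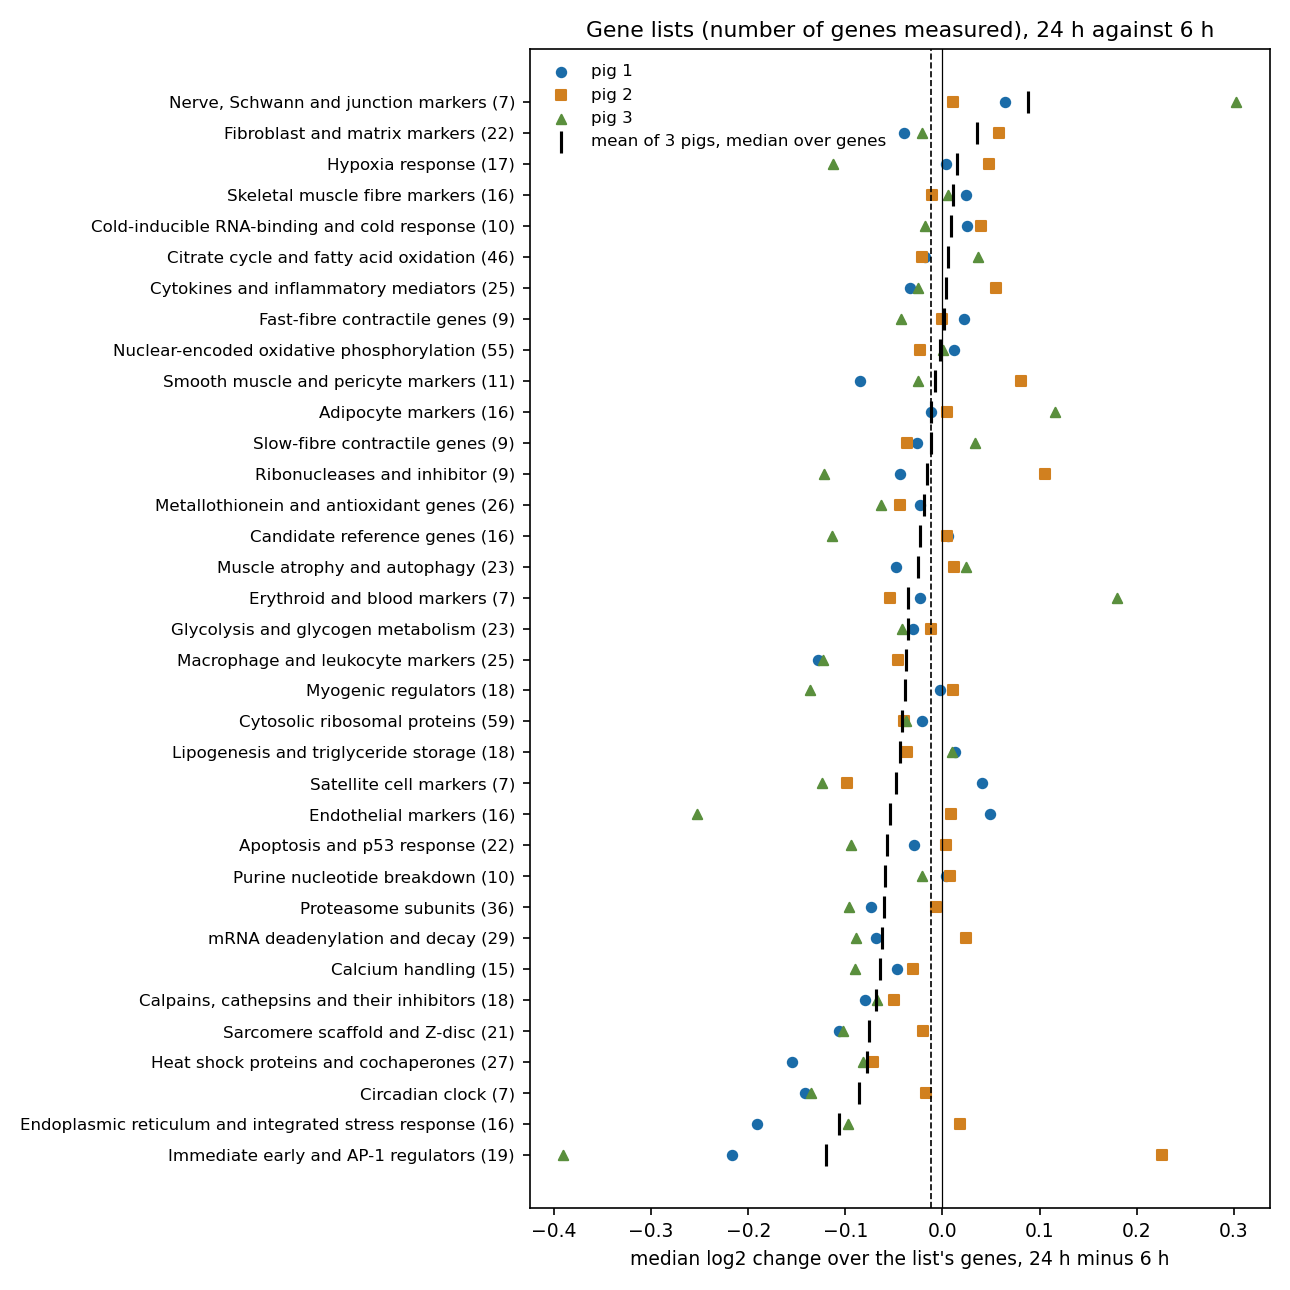
Median log2 change (24 h minus 6 h, horizontal axis) over the measured genes of each of 35 gene lists (number of genes in brackets) in pigs 1, 2 and 3 (coloured points) and for the mean of the pigs (black bars); the dashed line is the median over the 6765 named genes, -0.01. The immediate early list spreads furthest between pigs, from -0.39 in pig 3 to 0.23 in pig 2, while the contractile and metabolic lists lie near 0.

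Lists of markers of other cell types of muscle had medians between -0.05 and 0.09, and the signs for adipocytes, smooth muscle and erythroid cells turned under at least 1 scaling. Of 22 fibroblast and matrix markers 13 were higher and 9 lower, with the collagen cross-linking enzyme LOX at 0.25 ± 0.13 and the collagen gene COL3A1 at 0.21 ± 0.19 (groups apart above), and the protease inhibitor TIMP1 at -0.25 ± 0.18 (groups apart below). Of 16 endothelial markers 14 had a lower mean (54.4% of the named genes), but the list median was 0.05, 0.01 and -0.25 in pigs 1, 2 and 3, and -0.05 for the mean of the pigs; its sign turned without pig 3 or its 24 h array (0.0252 and 0.0169). The tight-junction gene CLDN5 was at -0.40 ± 0.45 and the adhesion molecule PECAM1 at -0.26 ± 0.13, with -0.43 ± 0.14 at a dimmer set. The 16 adipocyte markers were 7 higher and 9 lower, with leptin, LEP, at 0.24 ± 0.17 and the adipocyte regulator PPARG at -0.30 ± 0.17 (at a low mean level of 4.83). The 11 smooth muscle and pericyte markers were 3 higher and 8 lower, with the pericyte receptor PDGFRB at 0.19 ± 0.20 and the actin-binding TAGLN at -0.21 ± 0.41. The 7 erythroid markers were 3 higher and 4 lower, with beta-globin, HBB, at -0.06 ± 0.15, and the 7 satellite cell markers 3 higher and 4 lower, with the adhesion molecule VCAM1 at -0.16 ± 0.08. Of 7 nerve and junction markers 5 were higher, with the neurofilament gene NEFL at 3.89, 3.93 and 3.68 at 6 h and at 4.13, 4.21 and 4.11 at 24 h, a change of 0.32 ± 0.10 at a very low level. In the 7 circadian clock genes (2 higher, 5 lower) the repressor BHLHE40 was at 8.49, 5.99 and 7.61 at 6 h and at 7.67, 5.92 and 6.96 at 24 h. It was lower in 3 of 3 pigs, with a change of -0.51 ± 0.40 and overlapping groups. NFIL3, a repressor of the same network, was at -0.31 ± 0.17, and DBP and PER1, which are driven by the clock, were at 0.24 ± 0.26 and 0.11 ± 0.16.

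The probe set annotated to OCA2, a melanosomal protein, was at 6.44, 7.49 and 6.83 at 6 h and at 6.12, 7.16 and 6.07 at 24 h. It was lower in each pig, with a change of -0.47 ± 0.24, but the groups overlapped because pig 2 was high at both times. Its limma p was 0.00309 unadjusted and 0.572 adjusted, so it did not pass. Its means at 20 min and 2 h were 7.84 ± 0.83 and 7.04 ± 0.71, both above its 6 h mean of 6.92 ± 0.53.

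To ask whether the late step differed from the first one after death, the change over it was set against the change between 20 min and 2 h, which shares no array with it. No probe set passed (0 of 23999, 0%, smallest limma adjusted p = 0.387), and 1781 had an unadjusted p under 0.05 (7.42%). For C1QC the late change minus the first was -1.22 (limma adjusted p = 0.606). Its first-step change was -0.27 ± 1.01, in which pig 3 went from 8.77 to 7.34 and the other pigs went up. C1QA differed by -0.98 (adjusted p = 0.597 in limma), VSIG4 by -0.86 (0.698) and CD163 by -0.84 (0.667). Without pig 3, C1QC was the 1 probe set that passed this comparison (-1.70, limma adjusted p = 0.0233). The lowest difference among named genes was at the dimmer CAV1 set, which went from 8.73, 7.95 and 8.38 at 20 min to 9.16, 8.90 and 9.12 at 2 h and then lay between 8.84 and 9.27 at 6 h and at 8.32, 8.66 and 7.85 at 24 h. This set was thus higher after the first step and lower after the late one in 3 of 3 pigs, a difference of -1.47 (SE 0.269, limma adjusted p = 0.487), while the brightest CAV1 set had -0.17. It passed when the 24 h array of pig 2 was left out (-1.76, limma adjusted p = 0.0445). The dimmest set of C9H1orf21 had a difference of 1.02 (SE 0.158, limma adjusted p = 0.387) and its brightest -0.07.

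The direction of the small changes depended on how bright a probe set was. When the 23999 probe sets were divided into 10 equal groups by mean level, the median change was 0.02 in the dimmest, 0.06 in the third and the fourth, and -0.03 in the 3 brightest. At unadjusted p under 0.05 the fourth group held 218 higher and 57 lower probe sets and the brightest group held 4 higher and 84 lower. The median level of the higher ones was 4.86 and that of the lower ones 6.96, beside 5.92 over all probe sets. A single gene symbol was held by 31.5% of the higher ones and 59.1% of the lower ones, beside 42.0% of all. The spread of values within an array was 2.31 to 2.35 (SD) on the 6 h arrays and 2.29 to 2.31 on the 24 h arrays, so the 24 h arrays were slightly narrower. The part of array scale in these small changes was not tested. The shares of named genes set beside the gene lists were not matched for level, and the part of level in the list counts was not tested.

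**Figure D5:**
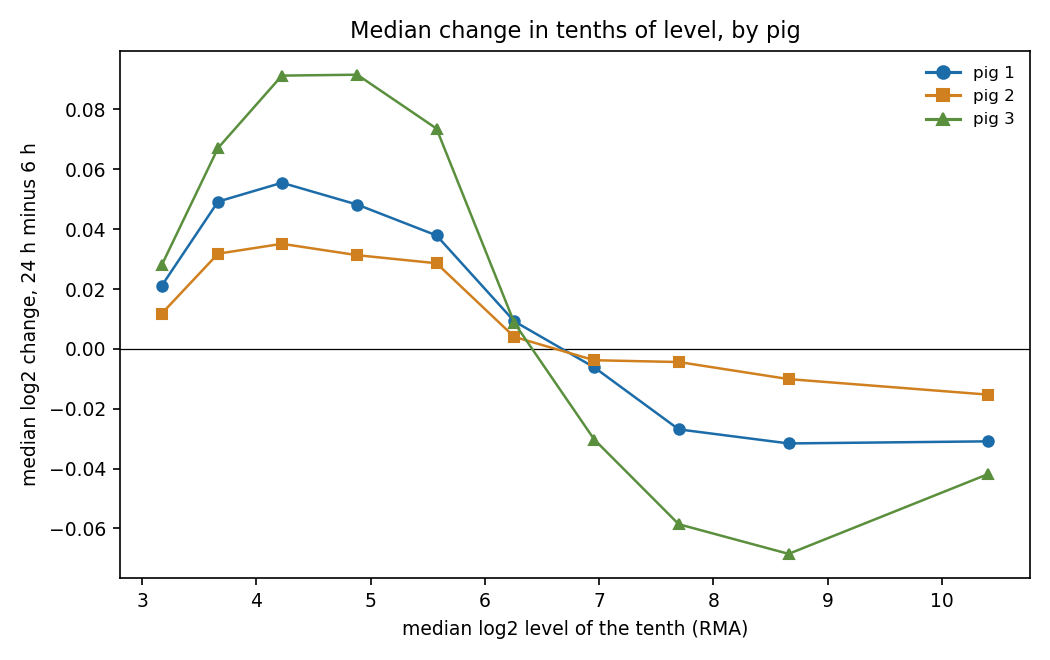
Median log2 change (24 h minus 6 h, vertical axis) of the probe sets in each of 10 equal groups by mean level (median log2 level of the group, horizontal axis) in pigs 1, 2 and 3. Each pig has medians above 0 for dim and below 0 for bright probe sets, with the widest swing in pig 3, from 0.09 to -0.07.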

How the data were processed

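Total RNA from semimembranosus portions was labelled with biotin and hybridised to porcine Affymetrix arrays (labels' protocols). What the authors deposited is log2 intensity for each probe set, from RMA and affy per the submitters' processing notes (versions not given in the sources used here). RMA corrects background, quantile-normalises and summarises probes, so a shift shared by all transcripts would not show. Sample titles gave times and pigs.

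Gene symbols came from the 2016 platform annotation: of 23999 probe sets 10069 had 1 symbol, 198 several and 13732 none here, and 9961 matched the Sscrofa11.1 RefSeq gene table. Only sets with 1 symbol were named; coordinates are left out, since no genome build is stated. In lists, a gene stands for its set with the highest mean level (6765 genes).

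Tests used limma 3.58.1 and statmod 1.5.0 in R 4.3.3. One model of all 12 arrays held time and pig as a fixed block (6 residual and 5.67 prior degrees of freedom). Two-sided p-values were adjusted by Benjamini-Hochberg over all 23999 probe sets (threshold 0.05), and the fit was tested on simulated data. Errors of genes are SDs of the changes of 3 pigs. The same animals pair the arrays: across probe sets, deviations from the mean of each time had an r of 0.409 to 0.656 for 2 arrays of 1 pig and of -0.634 to -0.0386 for arrays of different pigs. The 3 deviations of a time sum to 0, which by construction pushes the r of different pigs below 0. Nothing beyond these 3 animals was sampled. The p-values rest on the spread that remains after time and pig are fitted, moderated by the spread of other probe sets. They do not measure differences in level between the pigs.

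Named genes were up to 12 highest and 12 lowest changes with unadjusted p under 0.05 and 1 sign in all pigs, up to 4 members per list (the 3 smallest p and the highest level) and a fixed panel, of which 25 of 28 had a set. AIF1, SLA-DRA, CD14, TYROBP, LAPTM5, CTSS's and CAST's dimmer sets and other list members outside this rule were named after their values were seen, to show the make-up of their list. The comparison and the 35 lists were chosen with earlier results of these data known. Alternatives were no block, a random block, leaving out the dimmest 40%, cyclic loess, centring on the brightest 10%, repeated quantile normalisation, a trended and robust prior, array weights, the 6 arrays alone, 1 set per gene, an adjusted threshold of 0.1 and leaving out pigs or arrays.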

Additional observations from a re-analysis of the deposited data

How the results depend on the processing

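For 24 h against 6 h, 0 probe sets passed in 18 of 20 alternatives, including 0 without the replicate block. The exceptions were 4 with the 6 h and 24 h arrays only, a fit with fewer samples, and 1 without pig 3, so that leaving out a pig or an array gave 0 to 1. The 1027 higher probe sets at unadjusted p under 0.05 became 604 without the replicate block, 412 without the dimmest 40%, 649 with cyclic loess, 1789 when centred on the brightest probe sets, 217 with 1 set per gene and 636 to 972 when a pig or an array was left out. The 911 lower ones became 330 without the replicate block, 480 with centring, 319 with 1 set per gene and 414 to 1338 in the leave-outs. The 0 probe sets more than 2-fold higher became 0 to 3, and the 8 more than 2-fold lower became 4 (without the 24 h array of pig 3) to 18 (without the 24 h array of pig 2). In the late step against the first, 0 became 0 to 1 in the leave-outs, of which those of single arrays were added after seeing the data, and 1781 at unadjusted p under 0.05 became 843 without the replicate block and 508 with 1 set per gene. The causes were not tested. No named extreme changed direction. These genes were chosen for 1 sign in all pigs, so leaving out a pig could not turn the direction, and nothing further is read from this. With 3 pigs the median half-width of the 95% interval was 0.22 (log2) before adjustment, and after adjustment over all probe sets a change as large as -1.63 (C4BPA) did not pass.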
